A study of Sus scrofa with 2 samples.

Results

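Conjugation enzymes and the genes that work with them are described here in olfactory mucosa of newborn piglets (Sus scrofa). They were chosen by symbol: the families UGT1A, UGT2, GSTA, GSTM, GSTP, GSTT, GSTO, MGST, SULT, FMO, EPHX, GLYAT, ACSM and ABCC, and the single gene POR, each with at least 20 transcripts counted over both count tables. Of the 25880 genes in the tables, 43 had a fitting symbol and 40 of these reached the minimum. The 40 genes were 1 UGT (UGT2B31), 8 glutathione transferases, 9 sulfotransferases, 4 flavin-containing monooxygenases, 4 epoxide hydrolases, GLYATL3, 3 medium-chain acyl-CoA synthetases (ACSM), 9 ABCC transporters and POR. No row carried a UGT1A, UGT2A or GSTP symbol. Another 3 rows that the tables list by identifier alone were matched to a name through a table of gene names: SULT1E1 (ENSSSCG00000039341), ABCC1 (ENSSSCG00000007874) and a second SULT1C4 row (ENSSSCG00000037616). They are described beside the 40 and are not counted among them.

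The series holds single-nucleus RNA sequencing of 1 library from a CFTR knockout piglet and 1 library from a wild type piglet, both newborn, with dissected olfactory neuroepithelium frozen and cut in a cryostat before nuclei were freed in a citric acid buffer. CFTR encodes the chloride and bicarbonate channel mutated in cystic fibrosis and belongs by sequence to the ABCC family. The study addresses the loss of smell in that disease. With 1 library per genotype no test was possible: every ratio below compares these 2 libraries and not the genotypes, and every interval covers counting error only. The labels do not say which part of the gene the knockout allele changes.

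Nasal lining meets inhaled chemicals first and is rich in drug-metabolising enzymes. Oxidation by cytochromes P450, fed with electrons by POR, or by flavin-containing monooxygenases opens the process. Epoxide hydrolases then split reactive epoxides, and conjugating enzymes join a sulfate, glutathione, glucuronic acid or an amino acid to the product. ABCC transporters of the multidrug resistance type carry such conjugates out of cells. In the olfactory epithelium these enzymes are known from sustentacular cells, the supporting cells around the sensory neurons, and from Bowman glands beneath them, and they also act on odorants.

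After removal of likely doublets the knockout library held 5761 nuclei with 15142882 UMIs (unique molecular identifiers, each marking 1 captured transcript), a median of 2093 per nucleus, and the wild type library 4536 nuclei with 17249149 UMIs, a median of 2967. The libraries shared 8 cell barcodes. CFTR itself had 193 UMIs in the knockout library, 12.7 CPM (counts per 1000000 UMIs of a library or class; 95% Poisson interval 11.0 to 14.7), against 1497 UMIs and 86.8 CPM in the wild type library (82.4 to 91.3), so reads of the targeted gene were fewer but present in the library labelled knockout. Nuclei were clustered without the genes described here, and a cluster was named "-like" from marker genes. The libraries differed in make-up. The respiratory ciliated-like class had 457 knockout nuclei against 32 wild type nuclei, and a shallow unnamed cluster led by BPIFA1 (cluster 2, median depth 536 UMIs in the knockout library and 604 in the wild type library) had 1001 against 73. Cluster 14, of high depth, had 17 against 149 nuclei, and cluster 20, shallow and led by NIN, CYP2A19 and mitochondrial genes, had 7 against 152. Mature neuron-like nuclei lay mostly in cluster 5 in the knockout library (797 nuclei, against 94 in the wild type library) and in cluster 3 in the wild type library (114 against 849). A ratio in the mature neuron-like class therefore also compares different clusters, whose part was not tested. All 10 mature neuron markers with a symbol in the tables had UMIs in that class, with a summed level of 2912 CPM in knockout nuclei and 3652 CPM in wild type nuclei.

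Among the named classes, the 40 genes were most abundant in sustentacular-like nuclei, where their summed level was 5262 CPM in the knockout library and 5074 CPM in the wild type library. This class had 612 knockout nuclei and 758 wild type nuclei and gave 27.3% and 34.5% of all UMIs of the 40 genes. Bowman gland-like nuclei followed, at 3468 CPM in the knockout library and 3176 CPM in the wild type library. Of the 40 genes, 19 had the same class at the top of their levels in both libraries: 9 in sustentacular-like, 3 in Bowman gland-like, 3 in pericyte-like, 3 in respiratory ciliated-like and 1 in microvillar or ionocyte-like nuclei. The same count was not made over all genes, so it does not set these genes apart from others. The number in sustentacular-like nuclei was lower with nuclei of at least 1000 UMIs, as given below. The sustentacular-like class was ranked as 1 class here, and some of these places rest on few UMIs, such as 11 and 2 for SULT1C2 in respiratory ciliated-like nuclei. For 6 of the 19 (ABCC8, ABCC9, ACSM3, GLYATL3, SULT1C4 and SULT6B1) the interval of the top class lay above that of the next class in both libraries. For the rest, neighbours in the order could not be told apart in at least 1 library.

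**Figure D1:**
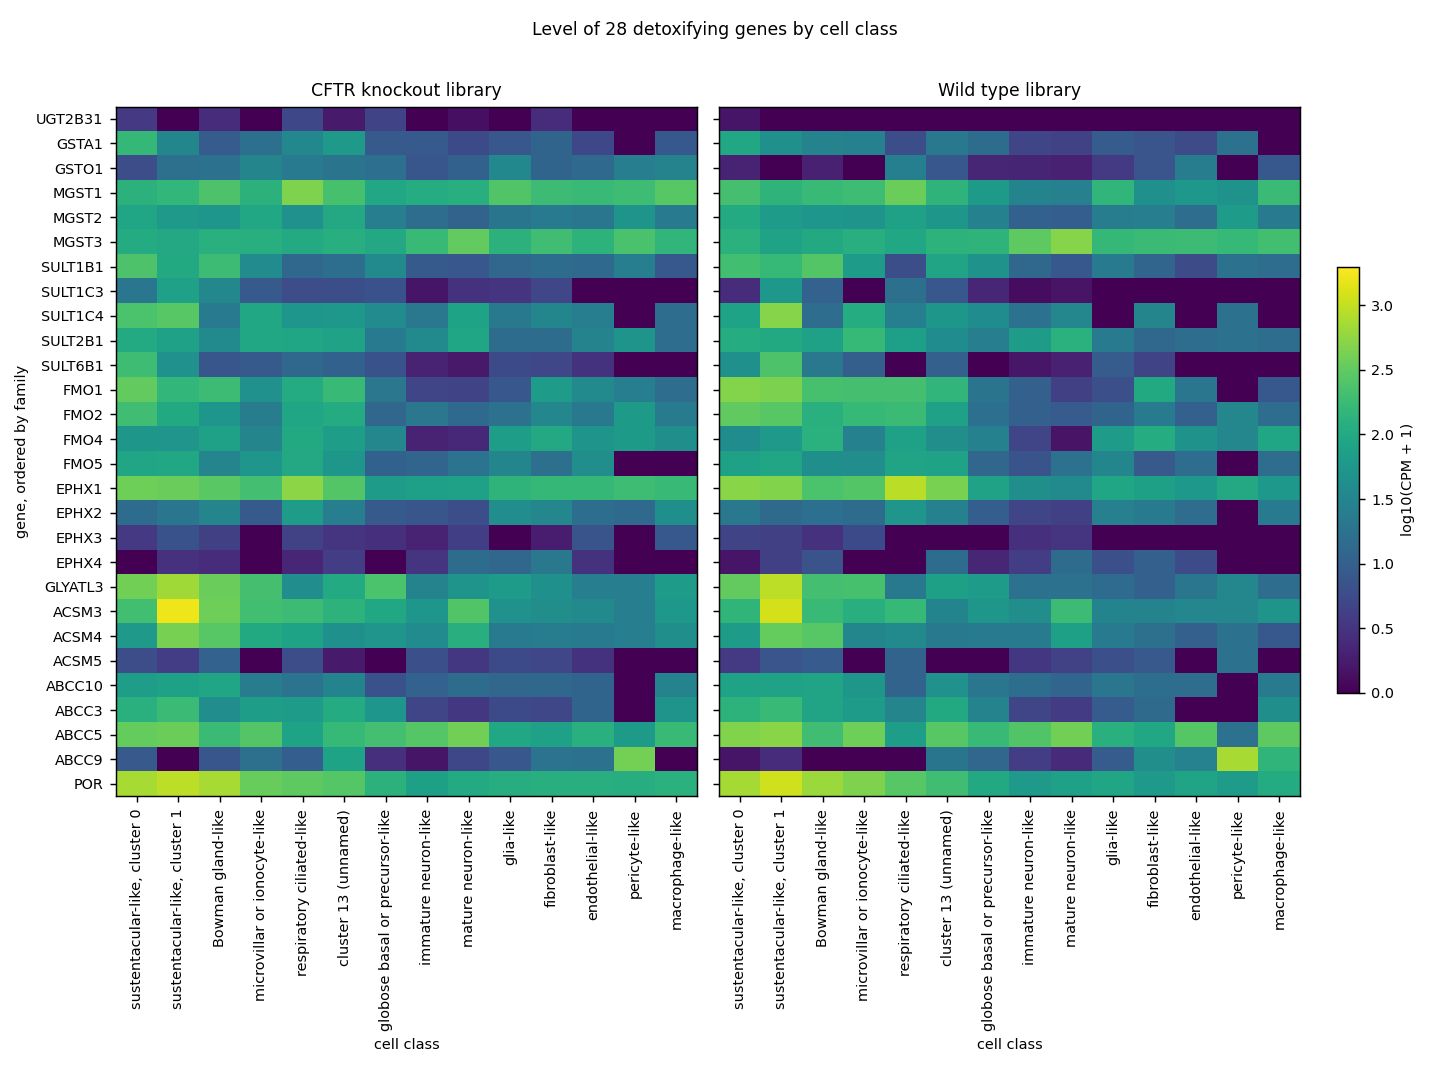
Level of the 28 genes described in full (rows, ordered by family) in each cell class (columns), as log10 of CPM plus 1, in the CFTR knockout library (left) and the wild type library (right). ACSM3, GLYATL3 and POR are brightest in sustentacular-like cluster 1 in both libraries, and ABCC9 in pericyte-like nuclei; among the named classes MGST3 is brightest in mature neuron-like nuclei.

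Sustentacular-like nuclei fell into 2 clusters. Cluster 0 carried the marker genes GPX6 and CPM (carboxypeptidase M) and had 269 knockout and 575 wild type nuclei. Cluster 1 carried GLDN and had 343 knockout and 183 wild type nuclei. Both carried ERMN, SEC14L3, CYP2A19, PAX6, SOX2 and LGR4. The clusters were not separated when the knockout library was clustered alone or at a lower resolution, so they mark ranges of this class and not settled types.

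Among the enzymes that open detoxification, POR was high in this epithelium and close between libraries in cluster 0. It stood at 727 CPM in knockout nuclei (669.7 to 789) and 709.8 CPM in wild type nuclei (672 to 749) of cluster 0, and at 939.7 CPM (881 to 1001) against 1143 CPM (1060.1 to 1231) in cluster 1, where the intervals do not meet. Bowman gland-like nuclei had 747 CPM in the knockout library and 645 CPM in the wild type library. In the shallow cluster 20 the wild type level was 656 CPM. The other named classes were lower than Bowman gland-like nuclei, down to 74.4 CPM in knockout and 57.4 CPM in wild type immature neuron-like nuclei. Over all nuclei POR had 282 CPM in the knockout library and 262 CPM in the wild type library, and the log2 ratio was 0.11 (0.05 to 0.17). After thinning every nucleus to 1000 UMIs, 56.7% of knockout sustentacular-like nuclei (exact Clopper-Pearson interval 52.6 to 60.8) and 51.1% of wild type ones (47.4 to 54.7) had a POR UMI. The same share was 13.1% of knockout and 6.38% of wild type glia-like nuclei, a class outside the epithelium. Unthinned, the sustentacular-like shares were 83.5% in the knockout library and 77.8% in the wild type library, at median depths of 2570.5 and 2710.5 UMIs, and the glia-like shares were 23.1% and 16.4% at median depths of 2124 and 2414 UMIs. Thinning left out 30 knockout and 20 wild type sustentacular-like nuclei, and 14 and 11 glia-like ones.

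The flavin-containing monooxygenases FMO1 and FMO2, which oxidise nitrogen and sulfur in foreign compounds, were lower in the knockout library in both sustentacular-like clusters. In cluster 1, FMO1 stood at 154 CPM in knockout nuclei (158 UMIs; 131 to 180.2) and 450.4 CPM in wild type nuclei (277 UMIs; 399 to 507), a log2 ratio of -1.55 (-1.84 to -1.26). FMO2 there had 98.6 CPM in knockout nuclei (80.3 to 119.8) and 278 CPM in wild type nuclei (238 to 323), a log2 ratio of -1.50. In cluster 0 the gaps were smaller, at 319 against 489 CPM for FMO1 (log2 -0.62) and 191 against 314 CPM for FMO2 (log2 -0.72), with intervals that do not meet. The thinned share of sustentacular-like nuclei with an FMO1 UMI was 16.7% in the knockout library (13.7 to 19.9) and 33.5% in the wild type library (30.1 to 37.0), against 0.595% and 0% in glia-like nuclei, where 0 of 141 wild type nuclei allows a share of up to 2.13%. Unthinned, the FMO1 shares of sustentacular-like nuclei were 38.2% in the knockout library and 58.7% in the wild type library. The marker genes of the class itself were also lower together in the knockout library: the 11 of 12 listed sustentacular markers with a symbol, all above 0, summed to 4699.7 CPM in knockout and 7566 CPM in wild type sustentacular-like nuclei, and their part in the FMO values was not tested.

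Neither gene was lower everywhere. FMO2 in Bowman gland-like nuclei was at 52.4 CPM in the knockout library and 123 CPM in the wild type library (log2 -1.23), while FMO1 there stood at 182 against 215 CPM (log2 -0.24). In the unnamed cluster 13, which carried respiratory secretory markers and TP63, FMO1 had 173 CPM in 475 knockout nuclei and 147 CPM in 131 wild type nuclei, and FMO2 106 against 75.7 CPM. Microvillar or ionocyte-like nuclei showed a wide gap on few nuclei, with FMO1 at 45.9 CPM in 47 knockout nuclei and 211 CPM in 45 wild type nuclei, and FMO2 at 23.0 against 162 CPM. FMO5, a monooxygenase that can insert oxygen beside a carbonyl group, was close between libraries in both sustentacular-like clusters (85.7 against 75.2 CPM in cluster 0, and 94.7 against 89.4 CPM in cluster 1). FMO4 was spread more widely, with 97.3 CPM in knockout and 110.4 CPM in wild type fibroblast-like nuclei, 101 against 77.2 CPM in respiratory ciliated-like nuclei and 1.38 against 0.492 CPM in mature neuron-like nuclei. FMO2, FMO1 and FMO4 are neighbours in the Sscrofa11.1 gene table, and whether the authors' counting could split reads between these similar genes is not stated in the labels. Summed over all nuclei, the 4 FMO genes had 228 CPM in the knockout library and 271 CPM in the wild type library.

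Epoxide hydrolases differed by class. EPHX1, the microsomal enzyme that hydrolyses epoxides of foreign compounds, was lower in knockout than in wild type sustentacular-like nuclei (375 against 513 CPM in cluster 0, log2 -0.45, and 347 against 475 CPM in cluster 1, log2 -0.45). It was highest among named classes in respiratory ciliated-like nuclei, at 529 CPM in the knockout library (500.3 to 559) and 906 CPM in the wild type library (777 to 1050.0). In fibroblast-like nuclei the order turned, with 158 CPM in the knockout library and 74.5 CPM in the wild type library, and the log2 ratio was 1.08 (0.70 to 1.48). EPHX1 overlaps TMEM63A in the gene table, and the strand used in counting is not stated in the labels. EPHX2, the soluble enzyme that acts on epoxides of fatty acids, had 374 UMIs and 24.7 CPM in the knockout library and 185 UMIs and 10.7 CPM in the wild type library. Its highest level was in respiratory ciliated-like nuclei in both libraries (64.5 and 51.5 CPM), the class with 457 against 32 nuclei. With each named class given the same weight its log2 ratio was 0.53, against 1.20 over all nuclei. EPHX3 and EPHX4 had 44 and 86 UMIs in the knockout library and 31 and 102 in the wild type library. EPHX4 was highest in fibroblast-like nuclei in the knockout library, at 20.3 CPM, against 9.20 CPM in that class in the wild type library.

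The sulfotransferases, which move sulfate from the carrier PAPS to phenols, steroids and other hydroxyl groups, differed in the secretory and supporting cells in which they were highest. SULT1E1, the oestrogen sulfotransferase named through its identifier, stood at 1676 CPM in knockout Bowman gland-like nuclei (1575 to 1782) and 2005 CPM in wild type ones (1918 to 2095), and at 964 against 987 CPM in cluster 13. In sustentacular-like cluster 0 it was level (478 against 465 CPM), and in cluster 1 it was lower in the knockout library (159 CPM, 136 to 185, against 587 CPM, 528 to 651). SULT1B1, which acts on phenols and thyroid hormone, had 180.2 CPM in knockout and 257 CPM in wild type Bowman gland-like nuclei (log2 -0.51). In sustentacular-like cluster 0 it had 235 CPM (202 to 271) against 199.7 CPM (180.0 to 221), a log2 ratio of 0.23 (-0.03 to 0.49), and in cluster 1 101 against 163 CPM (log2 -0.69). Over all nuclei it had 38.7 against 63.8 CPM, a log2 ratio of -0.72 (-0.87 to -0.58).

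The ratios of SULT1C4 and SULT6B1 lay on opposite sides of 1 in the 2 sustentacular-like clusters, a difference that was not tested. In cluster 0, SULT1C4 had 228 CPM in knockout nuclei (184 UMIs; 197 to 264) and 80.0 CPM in wild type nuclei (151 UMIs; 67.7 to 93.8), a log2 ratio of 1.51. In cluster 1 it had 276 CPM in knockout nuclei (245 to 310.3) and 501 CPM in wild type nuclei (446 to 560.0), a log2 ratio of -0.86. The summed level over the class was closer, at 255 against 183 CPM. SULT6B1, a little-studied member, stood at 186 against 44.5 CPM in cluster 0 (log2 2.07) and at 45.9 against 236 CPM in cluster 1 (log2 -2.36). These SULT6B1 values rest on few nuclei. In cluster 0 its UMIs came from 31 of 269 knockout nuclei and 32 of 575 wild type nuclei, and the 5 nuclei with most held 56.7% and 58.3% of them. In cluster 1 they came from 11 of 343 knockout and 10 of 183 wild type nuclei, so the Poisson intervals, which take UMIs as independent, are too narrow for this gene. SULT6B1 also overlaps CEBPZOS, SULT1A3 overlaps BOLA2B and FMO5 overlaps CHD1L in the gene table.

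SULT2B1, which sulfates cholesterol and other hydroxysteroids, stood at 91.8 CPM (47.4 to 160.4) in knockout and 162 CPM (113 to 224) in wild type microvillar or ionocyte-like nuclei, at 102 against 110.2 CPM in sustentacular-like cluster 0, and at 87.1 against 129 CPM in mature neuron-like nuclei. In Bowman gland-like nuclei it had 36.0 CPM in the knockout library and 75.7 CPM in the wild type library (log2 -1.07). SULT1C3 was low, with 159 UMIs in the knockout library and 76 in the wild type library, and stood in sustentacular-like cluster 1 at 76.1 against 56.9 CPM. SULT4A1, known mainly from brain, had 66 UMIs in the knockout library and 136 in the wild type library. SULT2A1, SULT1A3 and SULT1C2 had between 7 and 19 UMIs in the knockout library and between 12 and 25 in the wild type library, too few to order their classes. The second SULT1C4 row had 13.8 CPM in knockout and 15.4 CPM in wild type respiratory ciliated-like nuclei, its highest class in both libraries, and how reads were divided between the 2 SULT1C4 rows is uncertain.

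The medium-chain acyl-CoA synthetases activate carboxylic acids so that an amino acid can be joined to them, and ACSM4 is known from the olfactory epithelium of rats. ACSM3 was concentrated in sustentacular-like cluster 1, at 1663 CPM in knockout nuclei (1585 to 1744) and 1211 CPM in wild type nuclei (1126 to 1302), with 199 against 145 CPM in cluster 0. The log2 ratio was 0.45 in cluster 0 (0.16 to 0.74) and 0.46 in cluster 1 (0.33 to 0.58). Over the whole class it was 1.32, with 1018 CPM in the knockout library and 407 CPM in the wild type library, and cluster 1 made up 343 of 612 knockout and 183 of 758 wild type nuclei. ACSM4 had log2 ratios of -0.09 in cluster 0 and 0.36 in cluster 1 but 1.02 over the class (261 against 128 CPM). In Bowman gland-like nuclei ACSM3 had 375 CPM in the knockout library and 168 CPM in the wild type library (log2 1.16), whereas ACSM4 was level there (279 against 276 CPM). The ACSM3 UMIs there came from 83 of 230 knockout and 76 of 236 wild type nuclei. ACSM3 and ACSM4 were also counted in mature neuron-like nuclei, ACSM3 at 253 against 182 CPM and ACSM4 at 118 against 74.8 CPM. ACSM5 had 52 UMIs in the knockout library and 64 in the wild type library. ACSM3 overlaps ERI2 and ACSM4 overlaps THUMPD1 in the gene table.

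GLYATL3, a relative of the enzyme that joins glycine to activated acids, was highest in sustentacular-like cluster 1 in both libraries. It stood at 675 CPM in knockout and 935 CPM in wild type nuclei of sustentacular-like cluster 1 (log2 -0.47), at 398 against 322 CPM in cluster 0 (log2 0.31) and at 352 against 206 CPM in Bowman gland-like nuclei (log2 0.77). Globose basal or precursor-like nuclei had 232 CPM in the knockout library and 66.4 CPM in the wild type library (log2 1.81, 1.33 to 2.30). At clustering resolution 0.5 that log2 ratio was 0.67, with 104 knockout and 238 wild type nuclei in the class against 119 and 170 otherwise. Respiratory secretory markers there summed to 577 against 119 CPM, and their part was not tested. Over the 15 classes and unnamed clusters with at least 20 nuclei in both libraries, its level followed that of SULT1B1 most closely, with Pearson r of log levels of 0.87 in the knockout library and 0.91 in the wild type library. The classes of a library share its depth and its free RNA, so these r values are descriptions.

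**Figure D2:**
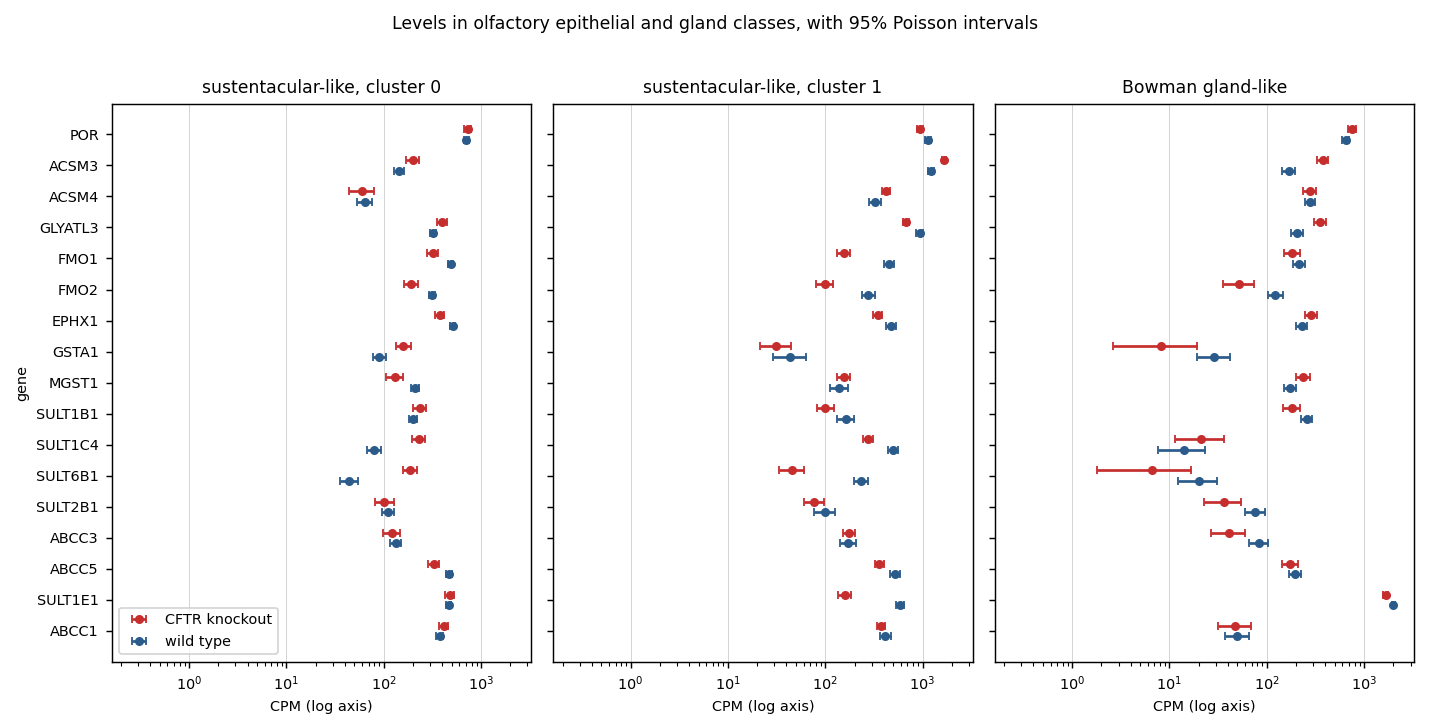
Level in CPM (log axis) of 17 genes in 3 classes, with red points for the CFTR knockout library above blue points for the wild type library and bars for 95% Poisson intervals. FMO1 and FMO2 lie left of the wild type points in both sustentacular-like clusters, and SULT1C4 and SULT6B1 lie to the right in cluster 0 and to the left in cluster 1.

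Counted over the whole sustentacular-like class, 24 of the 40 genes had at least 20 UMIs there. GSTO1, ACSM3, ACSM4 and SULT1C3, 4 of 24, had a ratio over 2, where 4.95% of the 11603 genes with as many UMIs did. FMO1 and FMO2, 2 of 24, had a ratio under 0.5, against 3.45% of all genes. FMO1 (log2 -0.95) and ACSM4 (0.93) each came within 2-fold in 1 of 8 alternatives. The median log2 ratio was -0.03 over the 24 genes and 0.09 over all genes. In cluster 0 alone 2 of 22 were past 2-fold in either direction (SULT1C4 and SULT6B1), against 9.6% of all genes. In cluster 1 alone 3 of 23 were (FMO1, FMO2 and SULT6B1, all lower in the knockout library), against 11.0%. In Bowman gland-like nuclei EPHX2, ACSM3 and SULT1C3, 3 of 22, had a ratio over 2, against 5.71% of all genes, and SULT2B1, FMO2, SULT6B1, GSTA1 and ABCC3, 5 of 22, a ratio under 0.5, against 5.32%. ABCC3 came within 2-fold in 5 of 8 alternatives (log2 up to -0.81), FMO2 in 3 of 8 (up to -0.76), SULT2B1 in 1 of 8 (-0.96) and ACSM3 in 1 of 8 (0.93). ACSM3 had the most UMIs of these 8 genes there, 229 in the knockout library and 169 in the wild type library. The 5 nuclei with most held 33.6% and 27.8% of them, and 36 of the knockout UMIs lay in 1 nucleus. SULT6B1 had 4 against 20 UMIs, with 17 of the wild type UMIs in 1 nucleus. GSTA1 had 5 against 29 UMIs, with 13 of the wild type UMIs in 1 nucleus. EPHX2 had 19 against 15 UMIs and SULT1C3 20 against 10.

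The glutathione transferases add glutathione to electrophiles. Soluble GSTA1, of the alpha class, was highest in sustentacular-like nuclei in both libraries. It stood at 159 CPM in knockout and 90.6 CPM in wild type nuclei of cluster 0 (log2 0.81) and at 31.2 against 43.9 CPM in cluster 1. GSTA4, which favours hydroxynonenal and other products of lipid peroxidation, stood at 62.4 against 35.0 CPM in fibroblast-like nuclei and at 41.9 against 40.1 CPM in globose basal or precursor-like nuclei. In sustentacular-like cluster 0 it had 21.1 against 21.2 CPM. GSTM3, of the mu class, had 79 UMIs in the knockout library and 65 in the wild type library. GSTO2, an omega-class dehydroascorbate reductase, was highest in pericyte-like nuclei, on 3 knockout and 6 wild type UMIs. GSTO1, of the same class, had 256 UMIs in the knockout library and 38 in the wild type library, 16.9 against 2.20 CPM. In the knockout library its level was 75.0 CPM in the shallow cluster 2 and between 6.57 and 34.1 CPM in the named classes that had 100 or more nuclei in each library, against 0.799 to 6.44 CPM in those classes in the wild type library. MGST2, a microsomal enzyme that can also make leukotriene C4, differed little over all nuclei (38.2 against 33.0 CPM). It overlaps MAML3 in the gene table.

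MGST3, a microsomal glutathione transferase with peroxidase activity, was highest, among the named classes of both libraries, in mature neuron-like nuclei. The mature neuron-like class had 324 CPM in the knockout library (304 to 346) and 507 CPM in the wild type library (486 to 529.6), and the log2 ratio was -0.65. Its knockout and wild type nuclei lay mostly in different clusters, whose part was not tested. Immature neuron-like nuclei had 173 against 301 CPM (log2 -0.80). Fibroblast-like nuclei had 195 against 176 CPM and sustentacular-like cluster 0 107 against 126 CPM, with intervals that overlap. Higher values came from shallow nuclei, at 535 against 712 CPM in cluster 2 and 829 CPM in wild type nuclei of cluster 20, where the 7 knockout nuclei had 4 UMIs. Thinned to 1000 UMIs, 25.8% of knockout (23.0 to 28.8) and 38.4% of wild type mature neuron-like nuclei (35.3 to 41.7) had an MGST3 UMI, against 11.3% and 11.3% of glia-like nuclei. Unthinned, the neuron shares were 54.7% in the knockout library and 75.6% in the wild type library, at median depths of 2889 and 3836 UMIs.

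MGST1, an abundant microsomal glutathione transferase that also reduces lipid peroxides, had the widest gap among the genes with at least 1000 UMIs in each library. Over all nuclei it had 3412 UMIs and 225 CPM in the knockout library (218 to 233) and 1503 UMIs and 87.1 CPM in the wild type library (82.8 to 91.7), and the log2 ratio was 1.37. The gap was wider in neuron-like and fibroblast-like nuclei than in sustentacular-like nuclei, a difference that was not tested. Mature neuron-like nuclei had 116 against 26.3 CPM (log2 2.15), immature neuron-like nuclei 111 against 30.0 CPM (log2 1.88) and fibroblast-like nuclei 184 against 44.2 CPM (log2 2.06). The mature neuron-like nuclei of each library lay mostly in different clusters, whose part was not tested. In sustentacular-like cluster 0 the level was 130.3 CPM in the knockout library and 210.3 CPM in the wild type library (log2 -0.69), and in cluster 1 154 against 139.8 CPM (log2 0.14). Respiratory ciliated-like nuclei, the named class with the highest level, had 455 CPM in 457 knockout nuclei and 365 CPM in 32 wild type nuclei.

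Markers of respiratory secretory cells were higher in the knockout library in the neuron-like and fibroblast-like classes, and also in sustentacular-like and Bowman gland-like nuclei. The 8 of 9 listed secretory markers with a symbol summed to 800.4 CPM in knockout and 120.3 CPM in wild type mature neuron-like nuclei, 697 against 110.0 CPM in immature neuron-like nuclei and 1309.8 against 145 CPM in fibroblast-like nuclei. Sustentacular-like cluster 0 had 1166 against 336 CPM of them, cluster 1 had 942 against 234 CPM, and Bowman gland-like nuclei had 1183 against 686 CPM. In mature neuron-like nuclei 7 of the 8 were above 0 in the knockout library, all but SCGB1A1, and 6 of 8 in the wild type library, all but SCGB1A1 and SCGB3A1. The part of RNA from other cells in the MGST1 values was not tested. Wild type MGST1 levels differ between these classes, so their ratios cannot show it. The shallow cluster 2, led by BPIFA1, had 721 CPM of MGST1 in the knockout library and 348 CPM in the wild type library. Without clusters 2 and 20 the ratio over all nuclei was 1.28 on the log2 scale, and with each named class given the same weight it was 0.74. Thinned to 1000 UMIs, 12.5% of knockout and 3.17% of wild type mature neuron-like nuclei had an MGST1 UMI, with unthinned shares of 29.4% and 9.44%. The thinned share was 20.2% of knockout and 16.3% of wild type glia-like nuclei, a class outside the epithelium. The neuron shares lie below these, but MGST1 was among the highest of the 40 genes in glia-like nuclei. Expression of MGST1 in neurons was not tested.

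EPHX1, SULT1C4 and GLYATL3 were also higher in knockout than in wild type mature neuron-like nuclei. As these nuclei lay mostly in different clusters in each library, the values also compare clusters, whose part was not tested. EPHX1 stood at 77.4 against 35.7 CPM in mature neuron-like nuclei (log2 1.12), and SULT1C4 at 80.2 against 32.7 CPM (log2 1.29). GLYATL3 stood at 50.5 against 16.5 CPM in mature neuron-like nuclei (log2 1.61), 63.7 against 13.4 CPM in glia-like nuclei and 43.8 against 9.20 CPM in fibroblast-like nuclei. The wild type values are small, 5 and 10 UMIs in those last classes. Secretory markers were higher in glia-like nuclei of the knockout library as well, at 999 against 115 CPM. Bowman gland markers stood at 85.7 against 34.9 CPM in mature neuron-like nuclei, 137 against 58.8 CPM in glia-like nuclei and 177 against 119.6 CPM in fibroblast-like nuclei. Respiratory ciliated markers stood at 1727 against 1906 CPM, 216 against 139 CPM and 332 against 123 CPM in those 3 classes. Sustentacular markers were closer between libraries in the same nuclei, at 565 CPM in knockout and 491 CPM in wild type mature neuron-like nuclei and 708 against 689 CPM in fibroblast-like nuclei, with all 11 measured markers above 0. The part of these markers' cells in the values was not tested. GLYATL3 and SULT1C4 were highest in sustentacular-like nuclei in both libraries. So were ACSM3, at 253 against 182 CPM in mature neuron-like nuclei, and FMO1, at 3.80 against 3.20 CPM there. FMO1 was lower in knockout than in wild type sustentacular-like nuclei (227 against 479 CPM). SULT1E1, highest in Bowman gland-like nuclei, had 21.8 against 11.1 CPM in mature neuron-like nuclei.

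**Figure D3:**
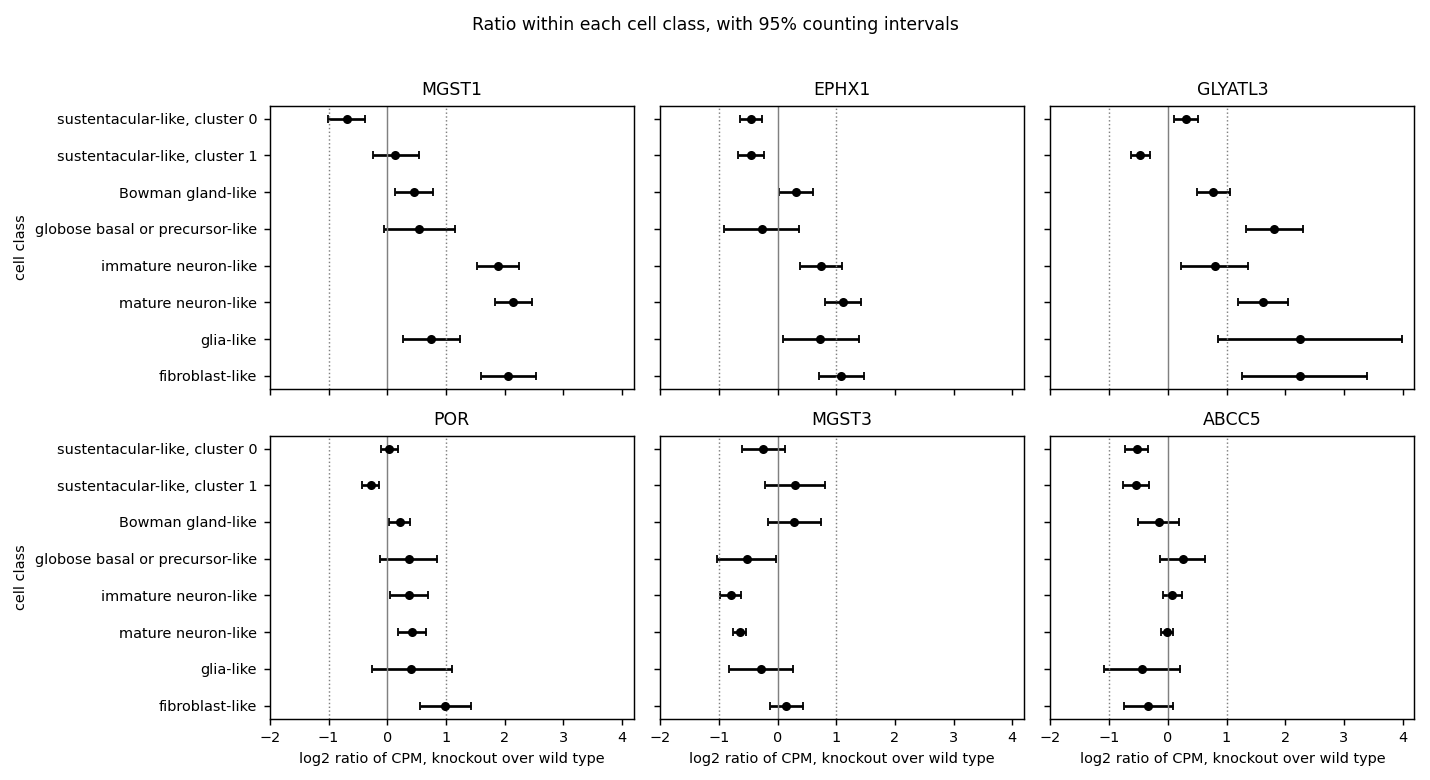
Log2 ratio of CPM, CFTR knockout library over wild type library, for 6 genes in 8 cell classes, with 95% counting intervals and dotted lines at 2-fold. MGST1 reaches 2.15 in mature neuron-like and 2.06 in fibroblast-like nuclei but -0.69 in sustentacular-like cluster 0, while ABCC5 stays within 2-fold in all 8.

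By count, 6 of 26 genes in mature neuron-like nuclei had a ratio over 2, where 5.3% of all genes did. These were GSTO1, GSTO2, SULT1C4, GLYATL3, MGST1 and EPHX1. A ratio under 0.5 was found for 0 of 26, against 3.27%. GSTO1 rested there on 28 knockout and 4 wild type UMIs, and GSTO2 on 13 and 8. The mature neuron-like nuclei of each library lay mostly in different clusters, whose part was not tested. In immature neuron-like nuclei 2 of 21 had a ratio over 2 (MGST1 and FMO2), against 3.04% of all genes, and 2 of 21 a ratio under 0.5 (FMO1 and SULT4A1), against 4.24%. Nuclei of at least 1000 UMIs were also clustered anew, which gave this class 569 knockout and 911 wild type nuclei, against 528 and 765 otherwise. In that setting 7 genes had a ratio under 0.5, and the share over all genes was not computed. FMO2 rested on 35 knockout and 31 wild type UMIs in the main clustering, with a log2 ratio of 1.06. Its log2 ratio was -1.05 in the new clustering, in which no class was named mature neuron-like, so the nuclei compared were not the same. In fibroblast-like nuclei 5 of 24 had a ratio over 2 (FMO5, EPHX4, GLYATL3, MGST1 and EPHX1), against 7.6%, and 1 of 24 a ratio under 0.5 (ABCC9), against 4.27%. EPHX1 came within 2-fold in 2 of 8 alternatives (lowest log2 ratio 0.76) and ABCC9 in 1 of 8 (-0.88). Glia-like nuclei had 1 of 10 over 2 (GLYATL3), against 8.86%, and 0 under 0.5, against 3.59%. Globose basal or precursor-like nuclei had 2 of 16 over 2 (ACSM4 and GLYATL3), against 4.45%, and 0 under 0.5, against 3.69%. At resolution 0.5, with 104 knockout and 238 wild type nuclei in the class, there were 0 over 2 and 5 under 0.5. The shares over all genes were not computed in that setting.

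Of the unnamed clusters, cluster 13 had 6 of 23 genes past 2-fold in either direction, where 20.0% of all genes were. ACSM3 stood there at 133 against 29.8 CPM, GSTA1 at 58.6 against 20.6 CPM and SULT1B1 at 14.6 against 82.6 CPM. In cluster 15, led by COL8A1 and HPSE2, 1 of 9 genes was past 2-fold, against 14.5% of all genes. This was MGST1, at 205 CPM in 201 knockout nuclei and 48.0 CPM in 290 wild type nuclei.

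Among the ABCC transporters, ABCC5, which exports cyclic nucleotides and glutathione conjugates, was high in neuron-like and supporting cell-like nuclei. The mature neuron-like class had 395 CPM in the knockout library and 399 CPM in the wild type library. Sustentacular-like nuclei had 345 against 484 CPM, a log2 ratio of -0.49 (-0.63 to -0.35). ABCC1, a broad exporter of glutathione and glucuronide conjugates named through its identifier, was highest in sustentacular-like nuclei in both libraries and close between them (392 against 386 CPM). ABCC3, which exports glucuronides and bile acids, was highest there too (152 against 143 CPM), and in Bowman gland-like nuclei it had 41.0 against 82.7 CPM (log2 -1.01, -1.72 to -0.35). ABCC10 was highest in Bowman gland-like nuclei in both libraries (88.5 against 83.7 CPM). ABCC2, which exports conjugates into bile in liver, had 42 UMIs in the knockout library and 41 in the wild type library. ABCC6, ABCC11 and ABCC12 had between 8 and 27 UMIs in the knockout library and between 13 and 29 in the wild type library. ABCC3 overlaps ANKRD40, ABCC10 overlaps DLK2 and ABCC11 overlaps LONP2 in the gene table.

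ABCC8 and ABCC9 are not exporters but the regulatory subunits of ATP-sensitive potassium channels, and both were highest in pericyte-like nuclei. ABCC9 had 402 CPM in 46 knockout nuclei (275 to 567) and 746 CPM in 30 wild type nuclei (546 to 994). ABCC8 had 5 UMIs in the knockout library and 7 in the wild type library there. ABCC9 also stood at 80.5 CPM in knockout and 18.4 CPM in wild type nuclei of cluster 13, and at 17.0 against 42.3 CPM in fibroblast-like nuclei. UGT2B31, the sole glucuronosyltransferase among the 40 genes, had 20 UMIs in the knockout library and 2 in the wild type library, a ratio of 11.4 (2.77 to 101), with 10 of the 20 in respiratory ciliated-like nuclei.

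**Figure D4:**
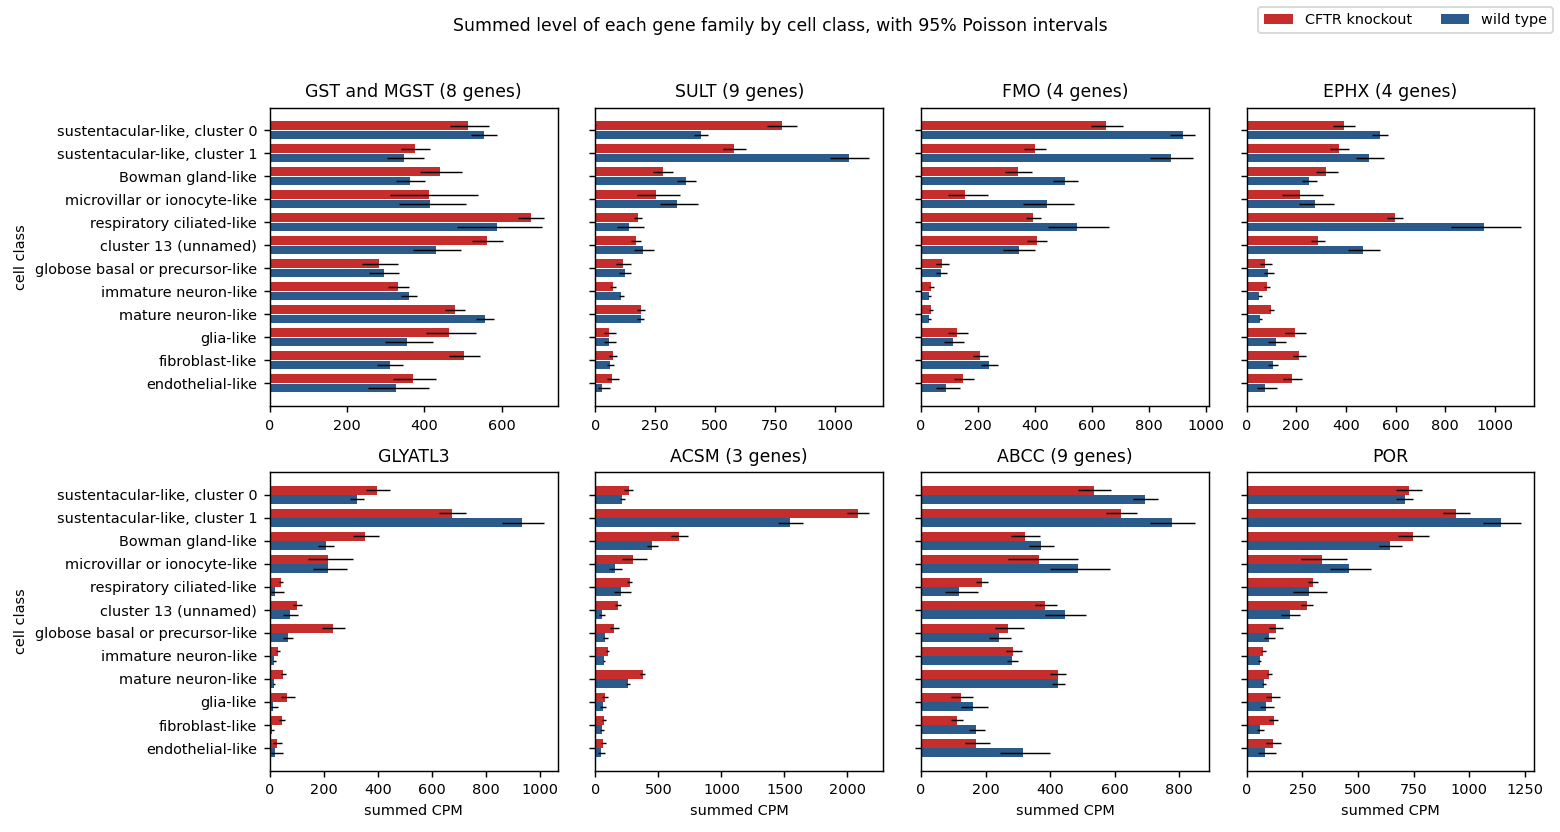
Summed CPM of each gene family (panels) in 12 cell classes, with red bars for the CFTR knockout library above blue bars for the wild type library and black lines for 95% Poisson intervals. The FMO sum is lower in the knockout library in both sustentacular-like clusters, and the sulfotransferase sum is higher in cluster 0 and lower in cluster 1. SULT1E1 and ABCC1 are not in these sums. The sulfotransferase sums include SULT6B1, whose UMIs lay in few nuclei, so their intervals are too narrow.

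Over all nuclei, 39 of the 40 genes had at least 20 UMIs after filtering (all but SULT1A3). A ratio over 2 was found for 6 of 39 (ABCC11, EPHX2, GSTO1, UGT2B31, SULT1C3 and MGST1) and a ratio under 0.5 for 0 of 39. That is 15.4%, where 9.98% of the 16114 genes with as many UMIs were past 2-fold, 6.94% over 2 and 3.03% under 0.5. The median log2 ratio was 0.22 over the 39 genes and 0.10 over all genes, with 25 genes above 0 and 14 below. By family, summed levels were 522 CPM in the knockout library and 430.0 CPM in the wild type library for the glutathione transferases. They were 212 against 234 CPM for the sulfotransferases, 275 against 197 CPM for the epoxide hydrolases, 357 against 229 CPM for the ACSM genes and 314 against 393 CPM for the ABCC genes. SULT1E1 (244 against 262 CPM) and ABCC1 (134 against 150 CPM) are outside these sums. The sums also carry the make-up of the libraries. The epoxide hydrolase sum was lower in the knockout library in respiratory ciliated-like (598 against 957 CPM) and sustentacular-like nuclei (381 against 527 CPM). It was higher in fibroblast-like (212 against 105 CPM) and mature neuron-like nuclei (99.5 against 54.6 CPM). With each named class weighted alike, the sign turned for ACSM5 (-0.11 over all nuclei, 0.0027 with equal weights) and, by more, for ABCC9 (log2 0.58 over all nuclei, -0.73 with equal weights), FMO4 (0.44 and -0.18), GSTA1 (0.26 and -0.11), MGST2 (0.21 and -0.18), ABCC3 (0.15 and -0.11) and EPHX4 (-0.06 and 0.35).

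**Figure D5:**
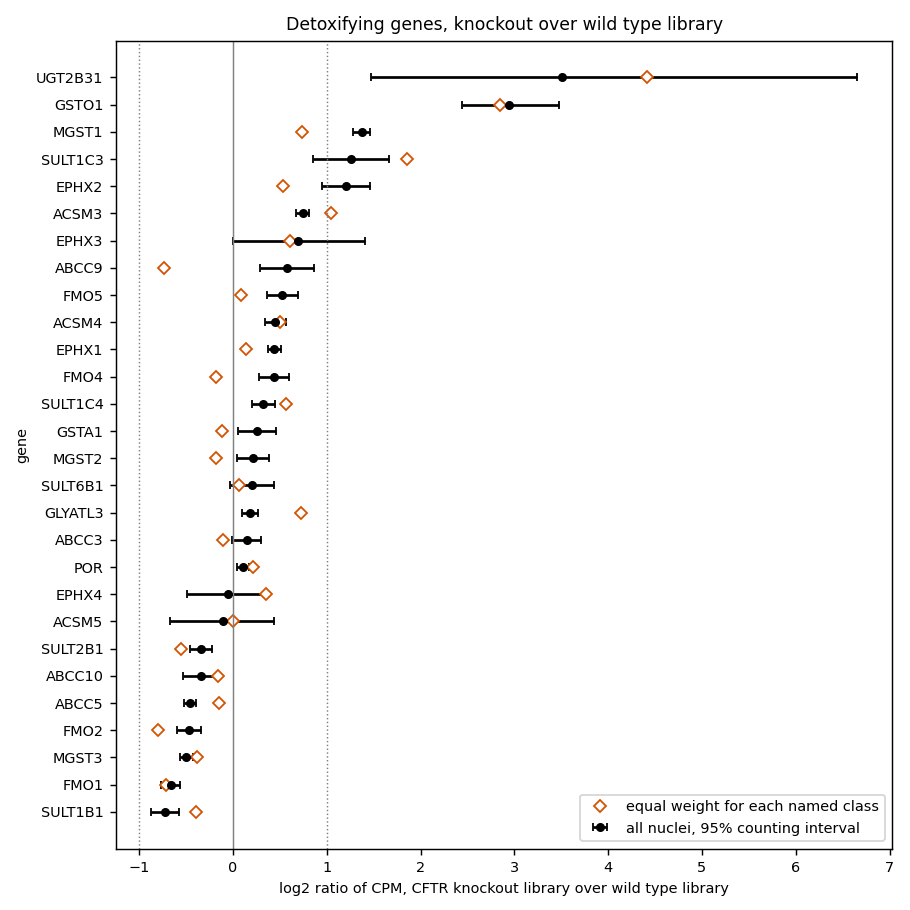
Log2 ratio of CPM, CFTR knockout library over wild type library, for 28 genes. Black points with 95% counting intervals use all nuclei, and open diamonds give each named class the same weight; MGST1 moves from 1.37 to 0.74 and EPHX2 from 1.20 to 0.53.

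Of 55 listed partner genes that supply cofactors, regulate, transport or act beside these enzymes, 47 had a symbol in the tables and 44 had at least 20 UMIs. Ratios over 2 were found for NQO1, ALDH1A1 and AHRR, and a ratio under 0.5 for SLCO1A2, so 4 of 44 were past 2-fold, against the 9.98% of all genes. The median log2 ratio of the 44 was 0.24. ALDH1A1, an aldehyde dehydrogenase that makes retinoic acid, had 368 CPM in the knockout library and 111 CPM in the wild type library. NQO1, a quinone reductase induced by the regulator NFE2L2, had 83.4 against 37.0 CPM, and NFE2L2 itself 163 against 168 CPM. SLCO1A2, an uptake carrier for organic anions, had 219.9 against 441 CPM, a ratio of 0.498 with an interval (0.478 to 0.519) that spans the threshold. In sustentacular-like nuclei SLCO1A2 had 1092 against 1747 CPM, a ratio of 0.625. AHRR, repressor of the aryl hydrocarbon receptor, rested on 27 knockout and 9 wild type UMIs. The 12 genes of cofactor supply were all within 2-fold over all nuclei, 11 of them above 0. They include PAPSS1 and PAPSS2, which make the sulfate donor (156 against 130.2 CPM, and 156 against 132 CPM), and GCLC, which begins glutathione synthesis (196 against 129.9 CPM). In sustentacular-like nuclei 2 of 33 partner genes had a ratio over 2, against 4.95% of all genes: SLC35D1, which brings UDP-glucuronic acid into the endoplasmic reticulum, at 338 CPM in the knockout library and 159 CPM in the wild type library, and NQO1 at 78.7 against 37.6 CPM.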

How the data were processed

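Nuclei were sequenced with 10x Genomics chemistry, per the labels' protocols. The deposited values are whole-number counts of UMIs per gene and nucleus, not normalized, in 1 table per library. Tools named in the submitters' processing notes are R 4.0.2, Seurat 4.0 and Cell Ranger. Aligner settings, genome build, annotation and strand were not given in the sources used here. The tables list 25880 genes, 8256 of them by identifier only.

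The libraries held 6054 knockout and 4715 wild type barcodes, with 16623086 and 18731495 UMIs. From these counts, nuclei with under 200 genes (0 and 1) were left out. Scrublet in scanpy 1.11.5 called 3 and 1 doublets by its own threshold, so the highest scores were removed instead, at 0.8% per 1000 barcodes (293 and 178). Mitochondrial transcripts made up 1.31% and 2.81% of UMIs. Nuclei were scaled to 10000 UMIs and clustered on 2000 variable genes, 30 components and 15 neighbours at resolution 1 (igraph 0.11.9), leaving out the genes described, the identifier-only rows matched to them, CFTR and mitochondrial genes. This gave 21 clusters. A class needed at least 3 markers and had to pass a check of its 10 leading genes. The name cartilage or bone was withheld from cluster 15 after its leading genes were seen.

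UMIs were summed per library and class and given as CPM with exact 95% Poisson intervals, and ratios with exact conditional binomial intervals (scipy 1.17.1). On data simulated with Poisson counts per library 95.8% of such intervals held the true ratio, which does not test them on UMIs grouped in nuclei. A count of 0 was set to 3 UMIs per library for a ratio. Past 2-fold means a ratio over 2 or under 0.5 among genes with at least 20 UMIs over both libraries. Levels are not per length, so they are compared within a gene. UMI counts of a gene in 1 nucleus are not independent, which the intervals ignore.

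Genes described in full were the 4 with most UMIs in each family, those with at least 100 UMIs past 2-fold over all nuclei, and, in each named class with at least 100 nuclei in both libraries, the 3 with the highest CPM and those with at least 50 UMIs past 2-fold. This named 28 genes. Other members are named so that all 40 are accounted for. The genes and lists were chosen with earlier results of these data known. Overlaps and neighbours come from a RefSeq gene table (Sscrofa11.1), which held 35 of the 40 genes. Sequences are not reported here.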

Additional observations from a re-analysis of the deposited data

Results flagged for a closer look

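FMO2 was set apart because its ratio lay past 2-fold in opposite directions in different classes. Its log2 ratio of the CFTR knockout library over the wild type library was -1.50 in sustentacular-like cluster 1 and -1.23 in Bowman gland-like nuclei, but 1.06 in immature neuron-like nuclei, where it rested on 35 knockout and 31 wild type UMIs. That value was -1.05 when nuclei with at least 1000 UMIs were clustered anew, which also changed which nuclei the class held. SULT6B1 was set apart in the same way, at -2.36 in sustentacular-like cluster 1 and 2.07 in cluster 0. With 1 library per genotype these differences were not tested. The wild type library had SULT6B1 UMIs in 10 nuclei of cluster 1.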

How the results depend on the processing

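No paired analysis was possible because each genotype has 1 library, and for the same reason no replicate could be left out. The number of genes past 2-fold over all nuclei lay between 4 and 6 under every other scaling, filter and weighting tried, with 0 under 0.5 in each. TMM and size factors lowered the median of all genes by 0.10 on the log2 scale. Without the shallow clusters 2 and 20 the number was 6 and without cluster 14 it was 5; those 2 were chosen after seeing the data. Numbers within a class moved more. The shares of all genes past 2-fold were not computed under any of these alternatives. In Bowman gland-like nuclei the number under 0.5 was 3, not 5, with these genes included in clustering and with no doublets removed. In fibroblast-like nuclei it was 2, not 1, with no doublets removed and with at least 1000 UMIs per nucleus. In globose basal or precursor-like nuclei the number over 2 was 0 at resolution 0.5 and 1 with these genes in clustering, with each library clustered alone, with no doublets removed and with at least 1000 UMIs, against 2, and the number under 0.5 was 5 at resolution 0.5, against 0. In immature neuron-like nuclei the number over 2 was 4 at resolution 0.5, with each library clustered alone and with no doublets removed, and 1 at resolution 2, against 2. The number under 0.5 there was 1 with these genes in clustering, at resolution 2, with each library clustered alone and with no doublets removed, and 7 with at least 1000 UMIs, against 2. In glia-like nuclei the number under 0.5 was 1 with no doublets removed, against 0. With at least 1000 UMIs 5 genes were highest in sustentacular-like nuclei in both libraries, against 9, and with no doublets removed 1 was highest in Bowman gland-like nuclei, against 3. FMO2 in immature neuron-like nuclei turned from 1.06 to -1.05 with at least 1000 UMIs, where clustering was redone and the class held 569 knockout and 911 wild type nuclei. The cause was not tested for any of these. Of 243 recomputed values of single genes past 2-fold, 219 stayed past it with the same sign. The mature neuron-like class could not be named with at least 1000 UMIs, and sustentacular-like clusters 0 and 1 have no value at resolution 0.5 or with each library clustered alone. Depth limits genes with under 20 UMIs.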

Other observations

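Cluster 14, whose nuclei had median depths of 9843 UMIs in the knockout library (17 nuclei) and 9115 UMIs in the wild type library (149 nuclei), held 1.41% of knockout and 13.2% of wild type UMIs of these genes. It stayed unnamed, with ATP13A5, ABCA13 and THSD7B among its leading genes. FMO1 there had 105 CPM in knockout and 226 CPM in wild type nuclei, and FMO2 16.6 against 112 CPM (3 and 212 UMIs). SULT6B1 stood at 226 against 18.6 CPM (41 and 35 UMIs), which came from 23.5% of knockout nuclei and 10.1% of wild type nuclei there.

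Endothelial-like nuclei had 171 against 55.9 CPM of MGST1 and 123 against 265 CPM of ABCC5, in 190 knockout and 76 wild type nuclei.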
